A study of Mus musculus with 8 samples.

Results

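Interferon-stimulated genes are the genes that cells switch on when an interferon binds its receptor, and 42 of them, chosen by name, are described here in stem and progenitor cells of mouse bone marrow. A gene was taken through the RefSeq symbol of its probe, and its brightest probe among those well above background on at least 2 of 8 arrays was read. Of the 42 genes, 40 were measured, out of 13200 genes measured in all. Mx1 and Mx2 had no matched probe, and 37 of the 40 were above background on every array. The sensor Ddx58 is also named Rigi.

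The RNA came from 2 sorted populations. LSK cells (lineage-negative, c-Kit+, Sca-1+) hold the blood stem cells and multipotent progenitors, and MEP are megakaryocyte and erythroid progenitors. Donor marrow carried Cre-ERT2 alone (the wild-type group, WT), Cre-ERT2 with Ezh2flox/flox (Ezh2-deleted), Cre-ERT2 with JAK2V617F (JAK2V617F), or Cre-ERT2 with both (double mutant), so the controls carried the recombinase too. It was transplanted into lethally irradiated wild-type CD45.1+ recipients, Ezh2 was deleted 4 weeks later, and the cells were sorted 2 months after transplantation. JAK2V617F is the kinase mutant of myeloproliferative neoplasms, and Ezh2 is the methyltransferase of the repressive mark on lysine 27 of histone H3. How deletion was induced, what drives JAK2V617F and how many mice gave each sample are not given in the sources used here.

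Each of the 8 groups (2 cell types, JAK2 wild type or mutant, Ezh2 intact or deleted) had 1 array. A main effect was therefore read over 4 matched pairs of arrays that differ in 1 of these factors, and a difference was called where its adjusted p was under 0.05. The Ezh2 pairs also differed in the sex of the marrow, as given below. Adjusted p-values are those of limma with Benjamini-Hochberg adjustment over all 13200 genes. With 1 array a group, they rest on the spread that the fit leaves over, not on replicates. For the main effects, interactions between the factors count as spread. Nothing states how many animals stand behind the arrays. A level is the log2 signal of a probe minus the log2 75th percentile of its array, so that 0 is a signal at that percentile, and levels of different probes are not compared with each other.

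In this pathway, type I and type III interferons act through receptors bound to JAK kinases, which phosphorylate STAT proteins, STAT2 among them. With IRF9 these form a complex that binds the interferon-stimulated response element (ISRE) in promoters, while interferon gamma signals through JAK1 and JAK2 to the GAS element. The genes so induced encode sensors of foreign nucleic acid, enzymes and binding proteins that block viruses, and regulators such as Irf7 that amplify the response or Usp18 that damps it. In bone marrow, interferons draw quiescent stem cells into cycle, and the LSK sort marker Sca-1 is the product of an interferon-inducible gene, Ly6a.

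Between 39.8% and 48.8% of probes were well above background on an array, and arrays of the same cell type correlated at 0.961 to 0.981 over all genes. In MEP, 10 of 12 LSK markers were lower and 11 of 12 MEP markers higher, as called. The Ezh2 probe read between 3.20 and 4.04 on all 8 arrays and did not part the Ezh2 groups (log2 change -0.27, SE 0.17, adjusted p = 0.409). Where that probe lies relative to the deleted part is not given in the sources used here, so it checks nothing. Xist, the RNA of the inactive X chromosome, marked the arrays of Ezh2-deleted cells, with levels from 1.39 to 2.85 there and no more than -3.24 elsewhere. The Y-linked Eif2s3y was above background only where Ezh2 was intact. Ezh2 status and the sex of the marrow therefore cannot be told apart in any Ezh2 comparison given here. All 8 arrays lay on 1 slide.

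The promoters showed what these genes share in sequence. RefSeq promoters (build GRCm38.p6, 250 bases before to 50 after the start site) were found for 32 of the 42 genes, and not for Dhx58, Zbp1, Oas2, Mx1, Mx2, Rtp4, Usp18, Parp9, Parp14 and Ifi27l2a. The ISRE, searched as GAAA, any 2 bases and GAAA on both strands, occurred in 16 of the 32, against 3.99% of 27025 genes with a promoter of the same length. The GAS element, searched as TTCNNNGAA, which reads the same on both strands, occurred in 8 (25.0%) against 9.55% of all. The motifs were searched apart, so a base could count for both. A match is a run of letters, not a site shown to be bound.

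The 250 bases before the start site are shown for 6 genes on which the results below turn, 5′ to 3′ on the strand of the gene, with ISRE matches in capitals. Isg15 held 3 overlapping matches from 78 bases before the start site on, Ifit3 had 2 matches, and Gbp3 2 overlapping ones. Rsad2 and Cmpk2 are neighbours that point away from each other on chromosome 12. Rsad2 held 1 match and Cmpk2 none. Ifi44 held none in this window. Gbp3 has another listed start site, and its window held no match.
Isg15 (GRCm38.p6, chr4:156200819-156201068, minus strand): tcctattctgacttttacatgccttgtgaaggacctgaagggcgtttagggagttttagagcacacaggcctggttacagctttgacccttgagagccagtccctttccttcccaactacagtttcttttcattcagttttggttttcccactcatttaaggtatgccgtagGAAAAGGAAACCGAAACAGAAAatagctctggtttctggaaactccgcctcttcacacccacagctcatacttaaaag
Ifit3 (GRCm38.p6, chr19:34583279-34583528, plus strand): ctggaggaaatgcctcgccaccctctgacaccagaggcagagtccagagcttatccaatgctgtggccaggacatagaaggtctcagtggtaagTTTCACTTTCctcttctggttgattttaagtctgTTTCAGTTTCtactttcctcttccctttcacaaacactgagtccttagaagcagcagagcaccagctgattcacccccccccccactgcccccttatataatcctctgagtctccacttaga
Gbp3 (GRCm38.p6, chr3:142559794-142560043, plus strand): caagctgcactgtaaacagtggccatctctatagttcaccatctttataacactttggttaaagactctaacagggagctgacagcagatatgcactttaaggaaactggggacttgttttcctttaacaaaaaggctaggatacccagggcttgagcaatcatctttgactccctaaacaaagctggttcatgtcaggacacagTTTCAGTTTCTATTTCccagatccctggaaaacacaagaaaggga
Rsad2 (GRCm38.p6, chr12:26456453-26456702, minus strand): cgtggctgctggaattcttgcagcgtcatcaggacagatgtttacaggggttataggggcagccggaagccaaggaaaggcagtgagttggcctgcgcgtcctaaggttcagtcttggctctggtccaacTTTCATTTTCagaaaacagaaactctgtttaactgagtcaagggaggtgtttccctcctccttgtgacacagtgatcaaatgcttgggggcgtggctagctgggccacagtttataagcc
Cmpk2 (GRCm38.p6, chr12:26468965-26469214, plus strand): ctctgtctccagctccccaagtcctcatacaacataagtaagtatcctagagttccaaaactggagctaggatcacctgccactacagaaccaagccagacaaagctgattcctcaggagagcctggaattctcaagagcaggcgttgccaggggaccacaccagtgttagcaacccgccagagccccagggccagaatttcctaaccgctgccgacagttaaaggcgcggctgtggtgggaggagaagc
Ifi44 (GRCm38.p6, chr3:151749911-151750160, minus strand): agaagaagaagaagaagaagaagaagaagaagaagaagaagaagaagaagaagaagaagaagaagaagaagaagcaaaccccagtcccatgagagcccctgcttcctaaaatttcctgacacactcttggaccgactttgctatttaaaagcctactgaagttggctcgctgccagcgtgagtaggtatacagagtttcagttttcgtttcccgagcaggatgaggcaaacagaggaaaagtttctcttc

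**Figure D1:**
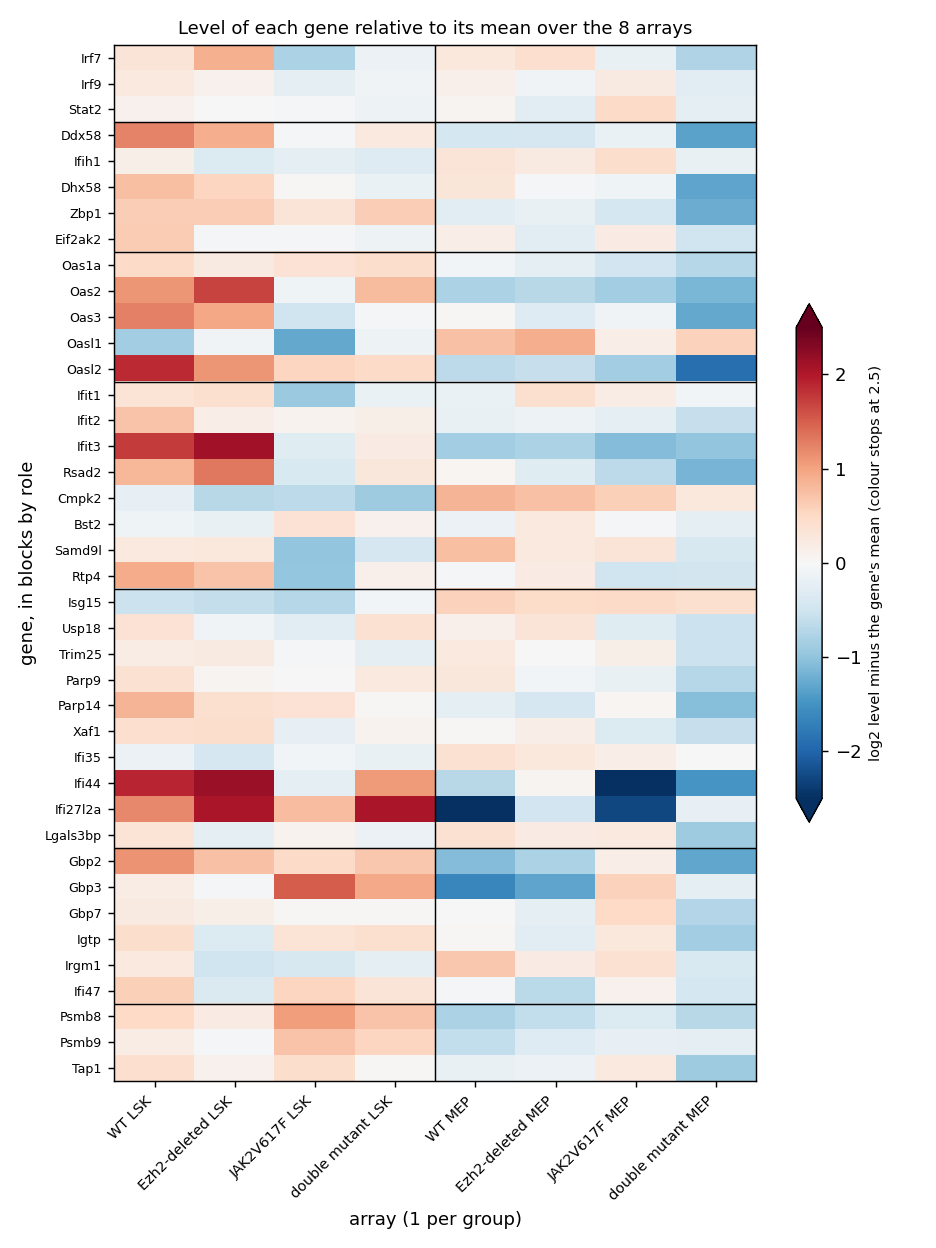
Level of each of the 40 genes (rows, in blocks by role from transcription factors at the top to MHC class I presentation at the bottom) on each of the 8 arrays (columns), as the log2 level minus the gene's mean over the arrays. Red is above and blue below the gene's own mean. The rows of Oasl2 and Ifi27l2a are red on all LSK and blue on all MEP arrays, those of Cmpk2, Oasl1 and Isg15 run the other way, and the double mutant MEP column is blue in most rows.

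The first comparison set MEP against LSK. More of the interferon-stimulated genes were lower than higher in MEP, with Ifi27l2a, Ifi44 and Oasl2 the farthest down, while Cmpk2, Oasl1 and Isg15 went up. Of the 40 genes, 16 were called lower in MEP, against 20.4% of all genes tested. Another 3 were called higher, against 20.6% of all. In both directions 19 of the 40 were called (47.5%), against 41.0% of all genes. The median log2 change was -0.41 over the 40 genes and 0.12 over all genes. With quantile normalization the medians were -0.53 and 0.01. Under either scaling 31 of the 40 changes were negative, against 42.1% of all genes under the first and 49.5% under quantile normalization. Levels in LSK and MEP did not overlap for 11 genes that were lower in MEP (17.1% of all genes) and 4 that were higher (18.8%). In sorted bulk samples, fewer cells of a type and less RNA per cell cannot be told apart.

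**Figure D2:**
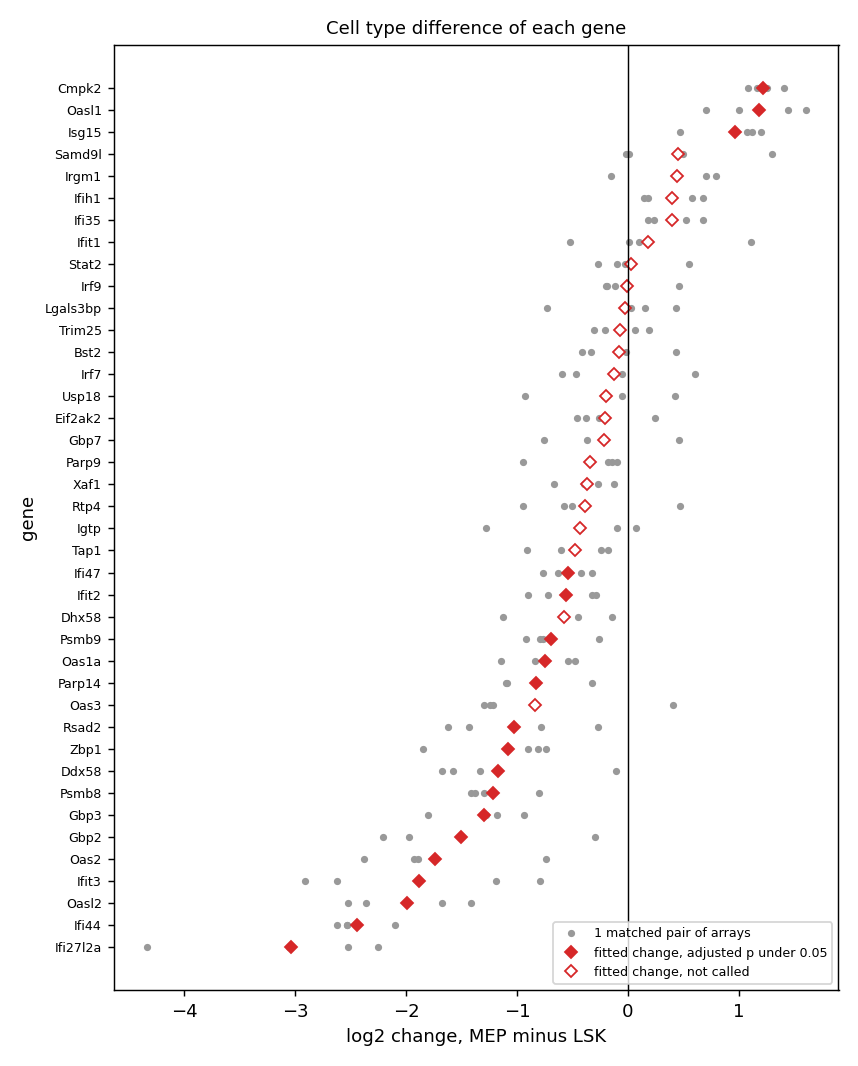
Log2 change of each gene, MEP minus LSK (horizontal axis), in each of the 4 matched pairs of arrays (grey dots) and as fitted over all 8 arrays (diamonds, filled where adjusted p was under 0.05). The genes are sorted by fitted change, from Ifi27l2a at -3.04 to Cmpk2 at 1.22, and the filled diamonds lie mostly left of 0.

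Among the transcription factors of the response, the cell types were close. Irf9 and Stat2, both parts of the ISRE-binding complex, differed by -0.01 and 0.03 on the log2 scale (SE 0.17 and 0.18). Irf7, the factor that amplifies interferon production, differed by -0.13 (SE 0.22, adjusted p = 0.668). None of the 3 was called.

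Of the 5 sensors, Ddx58 and Zbp1 fell. Ddx58 (RIG-I), a helicase that detects viral RNA, read 3.02, 2.67, 1.72 and 2.02 on the WT, Ezh2-deleted, JAK2V617F and double mutant LSK arrays and 1.34, 1.35, 1.61 and 0.44 on the MEP arrays in the same order. Every LSK array lay above every MEP array, by a fitted 1.17 on the log2 scale (log2 change -1.17, SE 0.27, adjusted p = 0.0111). Zbp1, which detects Z-form nucleic acid and can start necroptosis, read 0.75 to 1.05 in LSK and -0.81 to 0.24 in MEP (log2 change -1.08, adjusted p = 0.00669). The helicase Ifih1 (MDA5) had a change of 0.40, Dhx58 (LGP2) of -0.58 and the kinase Eif2ak2 (PKR) of -0.21, none of them called.

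The oligoadenylate synthetases, which make the messenger that activates RNase L, and their relatives went apart. Oasl2 fell most, by 3.97-fold: it read 3.11, 2.34, 1.77 and 1.72 in LSK and 0.59, 0.66, 0.36 and -0.64 in MEP (log2 change -1.99, SE 0.22, adjusted p = 0.000343). Oas2 (log2 change -1.74) and Oas1a (-0.75) fell as well, and Oas3, above background on 3 of the MEP arrays, was at least 1.79-fold lower but not called (adjusted p = 0.0538). Oasl1, which in mice restrains the translation of Irf7, rose: it read 2.56, 3.33, 2.14 and 3.29 in LSK and 4.16, 4.32, 3.58 and 3.99 in MEP (log2 change 1.18, SE 0.19, adjusted p = 0.0026). Oasl1 and Oasl2 are adjacent on chromosome 5 with no other protein-coding gene between them. These genes are similar in sequence, as are the IFIT and GBP genes, and a probe may also take up signal from a relative.

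A second adjacent pair went apart among the antiviral effectors. Cmpk2, a mitochondrial nucleotide kinase, read 1.1, 0.63, 0.65 and 0.43 in LSK and 2.17, 2.04, 1.91 and 1.58 in MEP (log2 change 1.22, SE 0.14, adjusted p = 0.000439). Its neighbour Rsad2 (viperin), which makes a chain-terminating nucleotide, read 0.61, 1.09, -0.60 and 0.05 in LSK and -0.17, -0.53, -0.87 and -1.38 in MEP (log2 change -1.03, SE 0.24, adjusted p = 0.0114). All 4 MEP arrays lay above all LSK arrays for Cmpk2, whereas the cell types overlapped for Rsad2. A second Cmpk2 probe gave a change of 1.1.

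The other effectors were mixed. Ifit2, which binds viral RNA, fell by 0.56 on the log2 scale (adjusted p = 0.0292), a call lost without the WT LSK, double mutant LSK, WT MEP, Ezh2-deleted MEP or double mutant MEP array (adjusted p from 0.0511 to 0.114). Ifit3 was called lower (adjusted p = 0.00487), but it was not well above background on any MEP array nor on the JAK2V617F and double mutant LSK arrays, and no fold is given. With normexp background correction, or with dim values set to a common floor, Ifit3 was not called (adjusted p = 0.251 and 0.236). The Ifit2 call was lost with normexp as well. Ifit1, Bst2 (tetherin), Samd9l and Rtp4 had changes from -0.39 to 0.45 and were not called.

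Isg15, the ubiquitin-like protein that is joined to other proteins during the response, rose in MEP. It read 3.46, 3.40, 3.29 and 3.93 in LSK and 4.58, 4.47, 4.49 and 4.40 in MEP, without overlap (1.95-fold, log2 change 0.96, SE 0.18, adjusted p = 0.00494). A second Isg15 probe gave 0.98. The enzymes around it did not follow: Usp18, which removes ISG15 and blocks the type I receptor, had a change of -0.20, and the ubiquitin ligase Trim25 of -0.07, neither called.

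Ifi27l2a and Ifi44, widely used markers of the response, had the largest cell type differences of the 40 genes. Ifi27l2a read 3.97, 4.81, 3.53 and 4.81 in LSK and -0.36, 2.29, 0.49 and 2.56 in MEP, 8.21-fold lower in MEP (log2 change -3.04, SE 0.32, adjusted p = 0.0003). Ifi44 read 0.79, 1.04, -1.36 and -0.06 in LSK and -1.82, -1.06, -3.89 and -2.59 in MEP, at least 4.77-fold lower (adjusted p = 0.00011). Of the MEP arrays, 3 had Ifi44 above background. The bound raises a signal that is not well above background to the lowest signal that is on its array. Parp14, an ADP-ribosyltransferase, fell by 0.83 on the log2 scale. Parp9, Xaf1, Ifi35 and Lgals3bp had changes from -0.37 to 0.40 and were not called.

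The GTPases and the antigen presentation genes, which respond most to interferon gamma, included 5 more that fell. Gbp2 and Gbp3, which coat vacuoles of intracellular pathogens, had log2 changes of -1.50 and -1.30 (adjusted p = 0.00788 and 0.00279), and Ifi47 one of -0.54 (adjusted p = 0.0355). The Ifi47 call was lost without the WT LSK or double mutant LSK array, or without any of the 4 MEP arrays (adjusted p from 0.0613 to 0.13). Their relatives Gbp7, Igtp and Irgm1 had changes from -0.43 to 0.44, not called. The immunoproteasome subunits Psmb8 and Psmb9 fell by 1.22 and 0.69 on the log2 scale (adjusted p = 0.00107 and 0.013), and the peptide transporter Tap1 had a change of -0.48 that was not called (adjusted p = 0.0992).

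The rest of the pathway was read from lists of 147 genes, of which 116 were measured. In MEP, 44 of the 116 were called lower (20.4% of all genes) and 8 higher (20.6%). The median change was -0.33, against 0.12 over all genes. Of the receptor chains, kinases and STATs, the type I chains Ifnar1 and Ifnar2 fell (log2 changes -1.12 and -0.76), while the interferon gamma chain Ifngr1 rose (1.15) and Jak2 rose (0.58). Stat3 and Stat4 fell by 1.62 and 2.71 on the log2 scale. Of 19 interferon genes, 6 were measured, near background. Ifna14 was called higher in MEP (0.65), though it was above background on 4 LSK and only 2 MEP arrays.

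Regulators and sensors outside the 42 genes followed the cell type strongly. Irf8, a factor of monocyte and dendritic cell fate, and Irf2 fell in MEP by 4.97 and 1.01 on the log2 scale. Irf5, above background on 3 of the MEP arrays, was at least 8.12-fold lower (adjusted p = 0.000343). The feedback inhibitors Socs3 and Socs1 fell by 2.71 and 1.21, while Cish and the exonuclease Trex1 rose (0.72 and 0.63). The adaptor Sting1 fell by 5.73 and the DNA sensor Ifi204 by 2.96. Of 15 further genes of MHC class I presentation, 3 fell, near the share of all genes (20.4%). They were the trimming enzyme Erap1 (-0.93), the transporter chain Tap2 (-0.85) and the transactivator Nlrc5 (-0.66). Of 48 further interferon-induced genes, 20 were lower (20.4% of all genes), among them Phf11b (-4.08) and Phf11d (-3.39). Another 3 were higher (20.6% of all genes): the chemokine Cxcl10 (2.24), the exonuclease Isg20 (1.91) and Lgals9 (0.76).

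Markers of monocytes, macrophages and dendritic cells moved with the cell type as well. Of 8 measured monocyte and macrophage genes, 7 were lower in MEP, and their summed linear level, in units of the array's 75th percentile, ran from 25.4 to 134 in LSK and from 9.2 to 15.1 in MEP. Of 9 measured dendritic cell genes 5 were lower and 1 higher, Irf8, Tcf4 and Cox6a2 among the lower ones. Their sums were 326 to 418 in LSK and 336 to 593 in MEP. Siglech, which read 8.07 to 8.45 in LSK and 8.24 to 9.14 in MEP, makes up most of each sum. These sums therefore do not show the course of the other dendritic cell genes. Their part in the cell type differences was not tested.

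The second comparison set JAK2V617F, a constitutively active form of a kinase of this pathway, against JAK2 wild type. Ifi44 fell, and most of the other genes had lower levels with JAK2V617F that did not pass the test, while Gbp3 had higher ones. Of the 40 changes 30 were negative (48.6% of all genes), and the median log2 change was -0.32 against 0.01 over all genes. Of the 40 genes 1 was called, Ifi44, against 0.311% of all genes tested in either direction and 0.106% called lower. Levels were lower in all 4 matched pairs for 16 genes (9.44% of all genes) and higher in all 4 for 2 (7.15%). At an unadjusted p under 0.05, 13 genes were lower (5.86% of all) and 2 higher (5.25%). Under normexp, quantile normalization, the series table and a common floor, 30 to 32 of the 40 changes were negative. Of all genes, 46.7% (normexp) to 54.4% (quantile normalization) were negative under these settings.

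**Figure D3:**
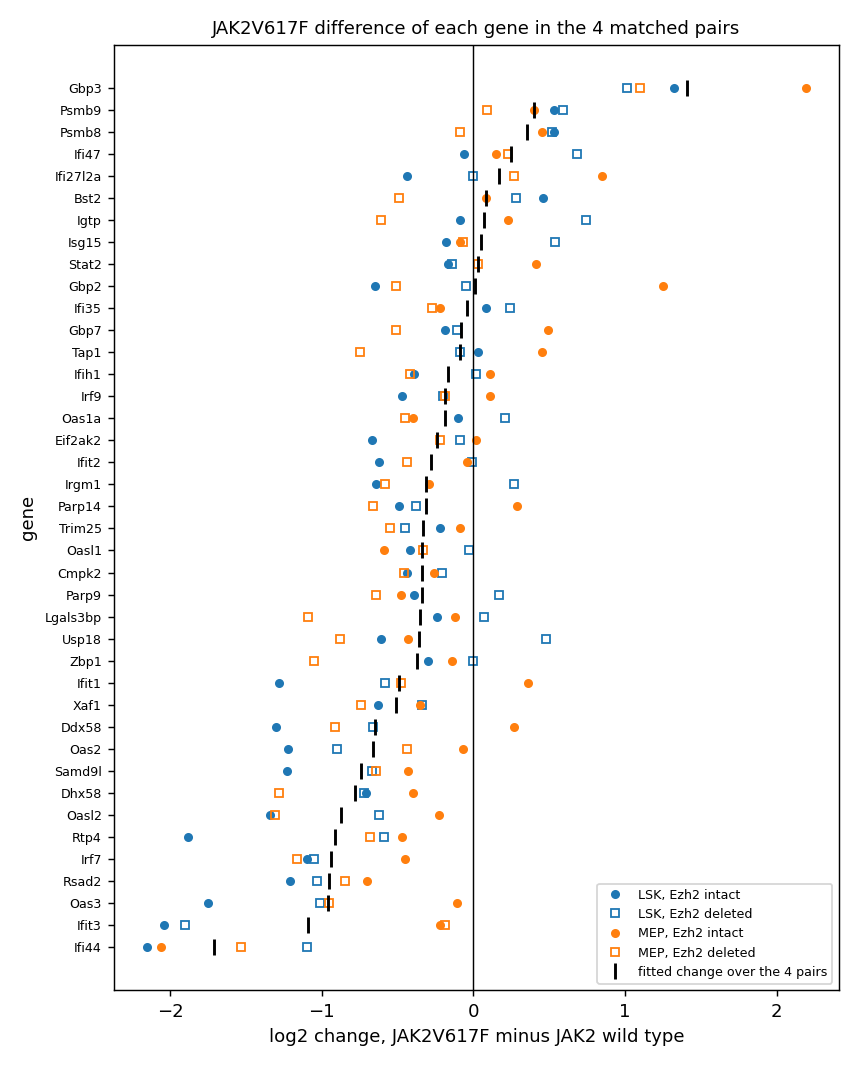
Log2 change of each gene, JAK2V617F minus JAK2 wild type (horizontal axis), in each of the 4 matched pairs (blue LSK, orange MEP; filled circles Ezh2 intact, open squares Ezh2 deleted) and as fitted over them (black bars), sorted by fitted change. The fitted changes run from -1.71 for Ifi44 to 1.41 for Gbp3. Most bars lie left of 0, and 34 of the 40 filled blue circles do, while the filled orange circles lie on both sides of 0.

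Ifi44 was lower in all 4 pairs, by 2.15 and 1.1 on the log2 scale in LSK at Ezh2 intact and deleted, and by 1.53 in MEP at Ezh2 deleted (log2 change -1.71, SE 0.21, adjusted p = 0.0266). Within each cell type both JAK2V617F arrays lay below both JAK2 wild-type arrays. The JAK2V617F MEP array was not above background, so the level over all pairs was at least 2.87-fold lower. The call was lost without the WT LSK, JAK2V617F LSK, WT MEP, Ezh2-deleted MEP, JAK2V617F MEP or double mutant MEP array (adjusted p from 0.0712 to 0.142) and held without the Ezh2-deleted LSK or the double mutant LSK array. It was also lost with dim values at a common floor (adjusted p = 0.239), with probes above background on 1 or more arrays (0.067) and with no filter on dim probes (0.0587).

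The genes next in order did not pass the test, and their values are given as such. Irf7 read -0.39 and 0.18 on the JAK2 wild-type LSK arrays against -1.49 and -0.86 on the JAK2V617F ones, and -0.44 and -0.29 against -0.89 and -1.45 in MEP (log2 change -0.94, SE 0.22, adjusted p = 0.186). It was lower in all 4 pairs and did not overlap within either cell type. Rsad2 had a change of -0.95 (SE 0.24, adjusted p = 0.217) and pair differences of -1.21, -1.03, -0.70 and -0.85. Its neighbour Cmpk2 had a smaller change, -0.34, also negative in all 4 pairs.

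By role, values were mostly negative in the sensors, the synthetases and the antiviral effectors. All 5 sensors had negative fitted changes, from -0.78 for Dhx58 to -0.17 for Ifih1, but not in every pair. Between the WT and JAK2V617F MEP arrays, Ddx58 (1.34 and 1.61), Ifih1 (1.87 and 1.98) and Eif2ak2 (0.38 and 0.41) rose. Dhx58 (0.69 and 0.29) and Zbp1 (0.14 and 0.0) fell there. All 5 synthetases had negative fitted changes too, from -0.87 for Oasl2 to -0.19 for Oas1a among the 4 above background on every array. Oas3 was not above background on the double mutant MEP array, and its level was at least 1.94-fold lower. Of the 8 measured effectors 7 had negative ones, from -0.95 for Rsad2 to -0.28 for Ifit2 among those above background on every array, with Bst2 at 0.08. Ifit3, the remaining one, was not above background on any JAK2V617F array. Rtp4 (-0.91), Samd9l (-0.74) and the pro-apoptotic Xaf1 (-0.51) were lower in all 4 pairs. None of these was called.

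The GTPases and the antigen presentation genes were mixed. Gbp3 read 2.84 and 2.61 on the JAK2 wild-type LSK arrays against 4.16 and 3.61, and 1.03 and 1.33 in MEP against 3.23 and 2.43 (log2 change 1.41, SE 0.22). Both JAK2V617F arrays lay above both wild-type arrays in each cell type, but the test was missed (adjusted p = 0.0651). Gbp7, adjacent to Gbp3 on chromosome 3, had a change of -0.08. Ifi47 (0.25), Igtp (0.07) and Gbp2 (0.01) were positive and Irgm1 (-0.31) negative, none called. Psmb9 (0.40) was higher in all 4 pairs and Psmb8 (0.35) in 3, while Tap1 had a change of -0.09, and none of these was called. Genes with an ISRE match in the promoter window had a median change of -0.18 and those without a match one of -0.34, over 16 genes each.

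**Figure D4:**
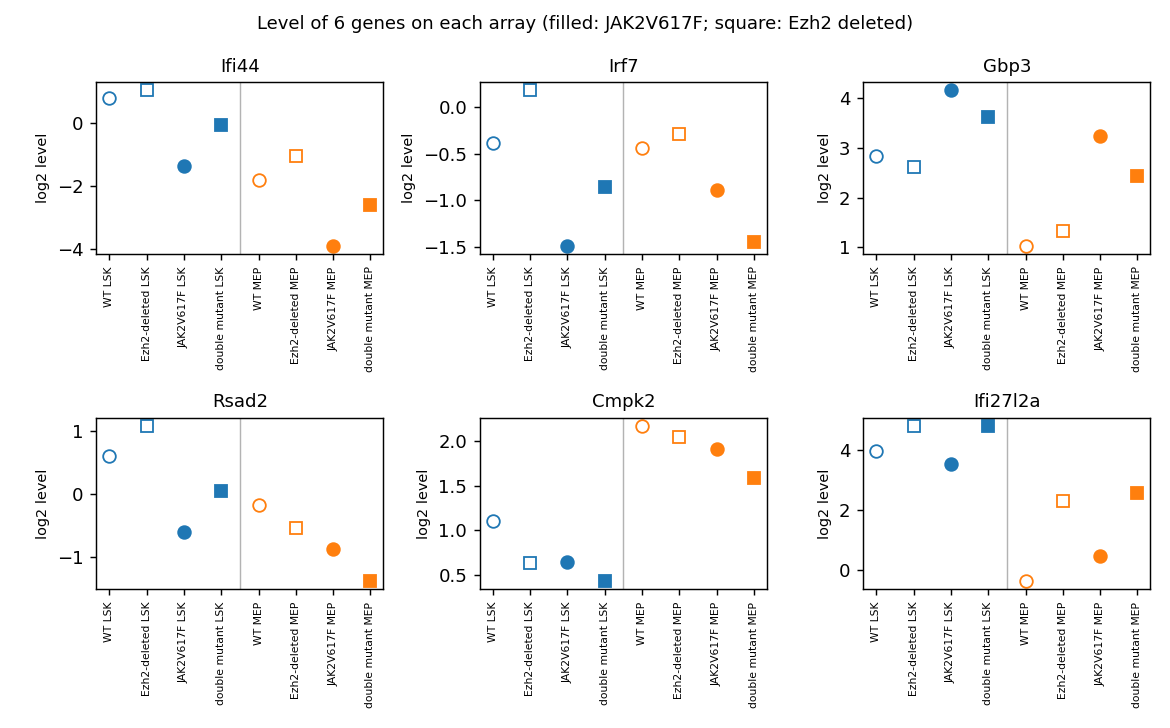
Log2 level (vertical axes, each gene with its own scale) of Ifi44, Irf7, Gbp3, Rsad2, Cmpk2 and Ifi27l2a on each of the 8 arrays, LSK in blue and MEP in orange, with JAK2V617F arrays filled and Ezh2-deleted arrays square. Filled points lie lower for Ifi44 and Irf7 and higher for Gbp3 within each cell type, Cmpk2 is higher on all MEP arrays, and the squares are higher for Ifi27l2a.

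The wider pathway did not lean the same way under JAK2V617F. Of the 116 listed genes outside the 42, 58 had negative and 58 positive changes (median 0.01), and among 48 further interferon-induced genes 25 were negative (median -0.03). The single call (0.311% of all genes) was Ifitm1, a membrane protein that blocks virus entry, which rose 4.16-fold. It read 6.96, 6.85, 8.32 and 8.55 in LSK and 3.32, 4.12, 5.73 and 6.89 in MEP in the order WT, Ezh2-deleted, JAK2V617F, double mutant (log2 change 2.06, SE 0.29, adjusted p = 0.0472). The receptor chains had changes from -0.03 for Ifnar1 to 0.28 for Ifngr2. Irf1, a factor of the interferon gamma response, had a change of 0.59, and the inhibitor Socs1 of 0.45, neither called (adjusted p = 0.423 and 0.369).

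Marker genes of cell types moved with JAK2V617F as well. Of 11 measured granulocyte genes 4 were called higher, against 0.311% of all genes called in either direction. All 11 changes were positive, and the median was 2.41. Their summed linear level was 725 and 502 on the JAK2 wild-type LSK arrays and 2620 and 980 on the JAK2V617F ones, and 22.6 and 45.8 against 158 and 297 in MEP. Mpo and Ctsg weigh most in the LSK sums, and they already read 8.95 and 7.53 on the WT LSK array. The 8 monocyte and macrophage genes were all positive (median 1.17, 1 called), with sums of 38.3 and 25.4 against 134 and 56.3 in LSK. Of the 12 LSK markers 8 were negative (median -0.56), none called. Their part in the values of the interferon-stimulated genes was not tested.

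Single arrays differed in the programme as a whole. The WT LSK array was the highest of the 4 LSK arrays for 20 of the 40 genes (22.9% of all genes) and the lowest for 0 (21.6%). The JAK2V617F LSK array was the lowest for 21 (21.4%). Relative to each gene's mean over its cell type, the median of the 40 genes was 0.25 on the WT, 0.01 on the Ezh2-deleted, -0.20 on the JAK2V617F and -0.09 on the double mutant LSK array. Between the JAK2V617F and the WT LSK arrays 34 of the 40 were lower (42.9% of all genes), and 11 at least 2-fold lower (6.36% of all genes), with Ifi44 and Rtp4 differing most among the genes above background on both arrays (-2.15 and -1.88). In the matching MEP pair, the median relative to the cell type mean was 0.18 on the WT and 0.11 on the JAK2V617F array. There the genes went both ways. A comparison of 2 single arrays has no replicate check.

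Among the MEP arrays the double mutant stood apart. It was the lowest of the 4 for 29 of the 40 genes, against 46.0% of all genes, and the highest for 1, against 26.1%. The medians relative to the cell type mean were 0.18, 0.11 and 0.11 on the WT, Ezh2-deleted and JAK2V617F MEP arrays and -0.39 on the double mutant, where the median of all genes was -0.12. The double mutant was at least 2-fold lower than the JAK2V617F MEP array for 10 of the 40 genes (5.92% of all genes) and at least 2-fold higher for 2 (8.47%). Gbp2, Gbp7 and Dhx58 were 1.46, 1.21 and 1.20 lower on the log2 scale. MEP markers were also lowest on this array, with a summed level of 392 against 584 to 727 on the 3 others. LSK markers were lowest there too, with a summed level of 24.9 against 42.2 to 46.4. The part of these markers in the difference was not tested. Without this array, the median JAK2V617F change of the 40 genes was -0.20 instead of -0.32, and 16 genes were lower in all 3 other pairs (13.5% of all genes).

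**Figure D5:**
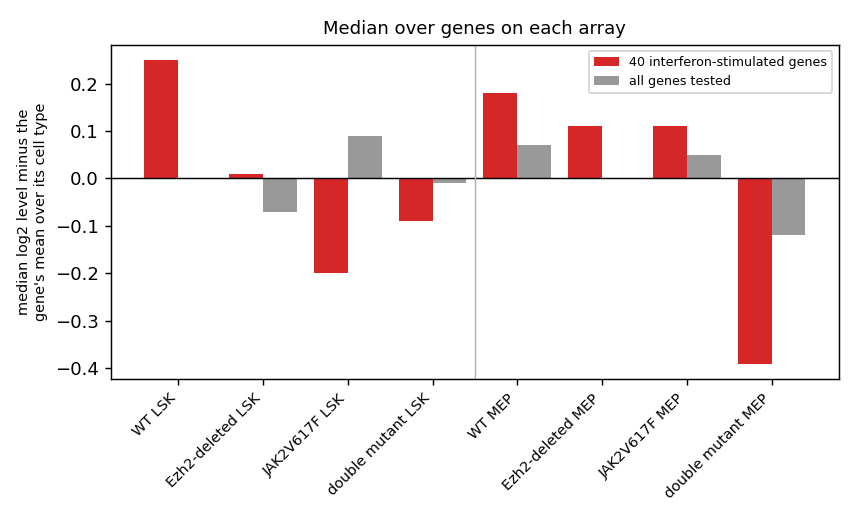
Median over genes of the log2 level minus the gene's mean over the 4 arrays of its cell type (vertical axis) on each array, for the 40 interferon-stimulated genes (red) and for all genes tested (grey). The red bar is highest for WT LSK at 0.25 and lowest for double mutant MEP at -0.39, while the grey bars lie between -0.12 and 0.09.

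Ezh2 deletion, read together with the sex of the marrow, gave no call among the 40 genes over both cell types, against 0.735% of all genes. At an unadjusted p under 0.05, 3 were higher and 7 lower (8.14% and 10% of all genes). Of the 40 changes 28 were negative (60.4% of all genes), with a median of -0.20 against -0.09 over all genes. That median was -0.13 without the double mutant MEP array, -0.11 without the JAK2V617F MEP array and -0.30 without the JAK2V617F LSK array. Ifi27l2a came closest: it was higher on the Ezh2-deleted array of all 4 pairs, by 0.83 and 1.27 in LSK and by 2.65 and 2.07 in MEP (log2 change 1.71, SE 0.32, adjusted p = 0.0729). Ifi44 (0.90, adjusted p = 0.127) and Oasl1 (0.62, adjusted p = 0.209) were also positive in all 4 pairs, Ifi44 with 1 Ezh2-intact array not above background. Ifi47 (-0.59), Lgals3bp (-0.53), Parp14 (-0.52), Dhx58 (-0.49) and Eif2ak2 (-0.47) were among those negative in all 4, none called. Over the 3 pairs without the double mutant MEP array, 9 of the 40 genes were lower in all (31.8% of all genes). Another 9 were higher in all 3 (15.6% of all genes).

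Within MEP, Ifi27l2a rose 5.14-fold on Ezh2 deletion, from -0.36 and 0.49 to 2.29 and 2.56 (log2 change 2.36, SE 0.25, adjusted p = 0.0329), against 0.629% of all genes called there. Within LSK its change was 1.05 and was not called (adjusted p = 0.237), nor was any other of the 40 genes (0.152% of all genes). The difference between the cell types was not called (1.31, SE 0.35, adjusted p = 0.641). The call in MEP was lost without the WT or Ezh2-deleted MEP array (adjusted p = 0.124) and without the JAK2V617F or double mutant MEP array (adjusted p = 0.168). It was also lost with the common floor (0.316), with probes above background on 1 or more arrays (0.115) and with no filter (0.172). B cell genes moved with Ezh2 status too: of 7 measured, 2 were called higher, and their summed level was 3.27 on the WT MEP and 52.5 on the Ezh2-deleted MEP array, though 2.97 and 7.04 on the JAK2V617F and double mutant ones. Their part was not tested.

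In the wider pathway, Irf4, a factor of lymphoid cells, was the only gene of 116 called with Ezh2 deletion (0.735% of all genes). It was above background on the Ezh2-deleted LSK, double mutant LSK and Ezh2-deleted MEP arrays, at -0.61, -2.44 and -1.93, and on no Ezh2-intact array, at least 2.13-fold higher (adjusted p = 0.0496). Of the 116 genes 84 had negative changes (60.4% of all genes), with a median of -0.15 against -0.09 over all genes.

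Read within each cell type, JAK2V617F gave no call among the 40 genes in LSK (0.144% of all genes) or MEP (0.152%). At an unadjusted p under 0.05, 12 were lower and 2 higher in LSK (8.05% and 9.91% of all genes), and 4 lower and 1 higher in MEP (3.35% and 4.62%). Ifit3 in LSK lay next to the threshold: it read -2.60 and -2.25 on the JAK2 wild-type arrays and -4.65 and -4.15, not above background, on the JAK2V617F ones, at least 2.27-fold lower (adjusted p = 0.0556). The JAK2V617F difference between the cell types was called for 0 of the 40 genes and for 0.0% of all genes by limma, with 2 of the 40 positive and 0 negative at an unadjusted p under 0.05 (5.12% and 6.42% of all genes). The Ezh2 difference between cell types was called for 0 of the 40 (0.00758% of all genes), with 1 positive and 3 negative at an unadjusted p under 0.05 (2.67% and 2.7% of all genes).

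The double mutant was tested for a departure from the sum of its parts. The JAK2V617F by Ezh2 term was called for 0 of the 40 genes and 0.0% of all genes by limma, and 0 of the 40 passed an unadjusted p of 0.05 in either direction (2.27% of all genes higher, 1.2% lower). With 1 array a group, the precision of that term is set by 8 arrays. In simulated data, the fit recovered 9 of 50 interactions with a log2 change of 2.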

How the data were processed

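RNA of 8 sorted samples was hybridised to 8 one-colour (Cy3) Agilent arrays of 1 slide. The deposited intensities were background-subtracted and detrended with Feature Extraction 10.7.1.1, per the file headers, with no scaling between arrays. The deposited series table holds the processed signal as a ratio to a factor per array, as its values show; its making is not given in the sources used here. Here the spots of a probe without outlier flags were averaged on the linear scale. The log2 of that mean was taken, and the log2 75th percentile over non-control spots was subtracted. Of 55681 probes, 27509 matched a RefSeq gene by accession. A gene was read from its brightest probe well above background on 2 or more arrays, which left 13200 genes. An additive limma 3.58.1 fit (cell type, JAK2, Ezh2) in R 4.3.3 gave the main effects, a nested fit those within a cell type, and another fit the interaction. The limma fits were checked on simulated data with 50 changed genes of each size. At a log2 change of 1, they recovered 23 of the 50 for JAK2V617F and 28 for Ezh2 deletion. They recovered 0 of the 50 for JAK2V617F within MEP and 0 for the interaction. At a log2 change of 2, these last 2 counts were 20 and 9, so a lack of calls there says little about such changes. All 42 genes could be named; pathway genes were named where called, up to 4 each way by size per list, or as core signalling genes, and markers by mean level. The genes and lists were chosen with earlier results of these data known. Alternatives covered the background correction, the scaling, the filter, the floor, the prior, the threshold and each array left out; the values without the double mutant MEP array were chosen after seeing the data.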

Additional observations from a re-analysis of the deposited data

How the results depend on the processing

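The number of the 40 genes called rested on the settings wherever few were called. For JAK2V617F over both cell types, 1 gene was called as reported and 2 under normexp background correction (Gbp3, Ifi44), with probes above background on all 8 arrays (Gbp3, Irf7; Ifi44 was not tested there), with a trended variance prior (Gbp3, Ifi44) and at an adjusted p under 0.10. It was 0 with probes above background on 1 or more arrays, with no filter on dim probes and with dim values at a common floor. For Ezh2 deletion over both cell types, 0 became 1 (Ifi27l2a) under normexp, the filter on all 8 arrays, the trended prior and the threshold of 0.10. For JAK2V617F within LSK, 0 became 3 under normexp (Ifi44, Oas2, Rsad2) and under the filter on all 8 arrays (Irf7, Oas2, Rsad2), and 1 at 0.10. For JAK2V617F within MEP, 0 became 1 (Gbp3) under that filter and the trended prior. For Ezh2 deletion within MEP, 1 became 0 with the filter on 1 or more arrays, with no filter and with the common floor. The cause of these shifts was not tested. Leaving out 1 array at a time gave 17 to 21 calls for MEP against LSK, 0 to 1 for JAK2V617F, 0 to 1 for Ezh2 deletion, 0 to 1 for JAK2V617F within LSK, 0 to 2 for JAK2V617F within MEP and 0 to 1 for Ezh2 deletion within MEP. Among the cell type calls, Ifi47, Ifit2 and Ifit3 lost theirs under some alternatives. No result reversed. No paired analysis was possible because the labels give no replicate numbers to block on; the matched pairs of arrays are defined by the design's own factors, which the fit already holds as terms. With 1 array a group, the precision is limited by the number of arrays, and values that are not well above background give bounds only.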
